A study of Mus musculus with 6 samples.

Results

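The genes described here are 37 genes of hepatic fatty acid, triglyceride and cholesterol synthesis, chosen by name as a programme of the transcription factors SREBP, LXR and ChREBP. All 37 had a probe set with exactly 1 gene symbol among the 19938 genes tested, and each is represented by its probe set with the highest mean. The tissue was whole liver, from male C57BL6 mice aged 10 weeks after a 16 h fast. Of 6 arrays, 3 came from mice given saline and 3 from mice given 100 ng of interleukin-6 (IL-6) intraperitoneally, all taken 1 h later. IL-6 is a cytokine that acts on hepatocytes through the receptor chain gp130 and the transcription factor STAT3. All groups were fasted, no fed group was analysed here, and 1 time point and 1 dose were measured.

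SREBP proteins are made as membrane precursors that the escort protein SCAP carries from the endoplasmic reticulum to the Golgi, where they are cut and released to the nucleus. INSIG proteins hold SCAP back when sterols are plentiful. SREBP-1c, encoded by Srebf1, mainly drives fatty acid synthesis, and SREBP-2, encoded by Srebf2, mainly drives cholesterol synthesis. ChREBP, encoded by Mlxipl, responds to glucose, and LXRα, encoded by Nr1h3, responds to oxysterols and induces Srebf1. In liver the lipogenic arm is high after feeding and low in fasting.

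Promoter sequences are shown for those genes with an unadjusted limma p under 0.05 (values below) whose upstream bases hold an SRE-type or E-box sequence. RefSeq windows (GRCm38.p6, 250 bases before to 50 after a start) were given for 29 of the 37 genes, 45 windows in all, some of them overlapping. The letters searched on both strands were TCACNCCAC (SRE-type, the kind of site SREBP binds), CACGTG (an E-box), TTCNNNGAA (a STAT-type site) and CCAAT (the NF-Y box that often accompanies SREBP sites). Each line gives the 200 bases upstream of a start, 5′ to 3′, with matches in capitals.
Hmgcs1, chr13:119690151-119690350, + strand: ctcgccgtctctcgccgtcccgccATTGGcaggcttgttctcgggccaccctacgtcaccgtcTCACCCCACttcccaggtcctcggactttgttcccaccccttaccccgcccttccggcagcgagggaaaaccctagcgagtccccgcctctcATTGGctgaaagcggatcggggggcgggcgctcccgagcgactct
Mlxipl upstream start, chr5:135089690-135089889, + strand: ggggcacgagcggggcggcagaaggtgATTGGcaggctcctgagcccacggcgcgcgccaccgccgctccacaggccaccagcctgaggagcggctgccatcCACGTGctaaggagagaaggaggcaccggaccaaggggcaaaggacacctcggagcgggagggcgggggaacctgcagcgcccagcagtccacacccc
Mlxipl internal start, chr5:135106691-135106890, + strand: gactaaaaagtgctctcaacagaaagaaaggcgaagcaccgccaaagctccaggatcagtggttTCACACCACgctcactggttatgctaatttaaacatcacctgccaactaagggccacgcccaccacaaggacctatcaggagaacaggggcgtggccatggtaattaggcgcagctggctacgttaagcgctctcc
Insig1, chr5:28071212-28071411, + strand: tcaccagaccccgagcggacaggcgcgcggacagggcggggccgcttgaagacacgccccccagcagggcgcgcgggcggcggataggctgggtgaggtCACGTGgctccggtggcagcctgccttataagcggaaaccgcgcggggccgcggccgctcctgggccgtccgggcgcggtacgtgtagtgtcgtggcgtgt
Lpin2, chr17:71183332-71183531, + strand: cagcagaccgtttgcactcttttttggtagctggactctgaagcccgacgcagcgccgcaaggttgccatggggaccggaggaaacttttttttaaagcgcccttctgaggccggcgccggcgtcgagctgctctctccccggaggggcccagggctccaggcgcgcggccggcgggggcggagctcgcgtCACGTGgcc
In Hmgcs1 the SRE-type match TCACCCCAC began 137 bases before the start, between 2 CCAAT boxes on the opposite strand. Mlxipl had a CACGTG at 98 bases before its upstream start and, before a start inside its own gene span, the SRE-type match TCACACCAC. Insig1 and Lpin2 each had 1 CACGTG, at 101 and 9 bases before the start. The SRE-type letters stood in 2 of 45 windows of these genes and in 1.24% of all 32851 windows. CACGTG stood in 7 of 45 windows (7.15% of all) and CCAAT in 25 of 45 (37.4% of all). The 7 windows with CACGTG belonged to 6 genes, as the 2 windows of Scap overlap and hold the same site. The STAT-type letters stood in 0 of 45 windows and in 8.30% of all. These counts describe letters in short windows and say nothing of binding.

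One hour after IL-6, none of the 37 genes passed the test over all genes, and the differences were small. Values are deposited log2 expression values made with RMA, which corrects background, quantile-normalizes arrays and combines the probes of a probe set. A log2 difference of 1 is a 2-fold change. In limma, 0 of 37 had an adjusted p under 0.05, where 0.421% of all genes passed (0.386% higher and 0.0351% lower), so a count of 0 is near what that share gives for a list of this size. At an unadjusted p under 0.05, 9 of 37 genes (24.3%) passed, against 6.62% of all genes. Of these, 6 were higher after IL-6, namely Srebf1, Mlxipl, Pparg, Elovl6, Hmgcs1 and Fdft1 (3.78% of all genes were higher at this p). The lower ones were Insig1, Insig2 and Lpin2, 3 of 37 (2.83% of all genes). All 37 lay above the median level of genes. When only genes above that median were tested, 9 of 37 passed at this p, against 8.41% of the genes tested. Differences ran from -0.44 in Insig1 to 0.36 in Pparg, with a median of 0.01 over the 37 genes and 0.003 over all genes. No gene reached 1.5-fold, and every 95% interval lay inside a 2-fold change in either direction. Levels lay between the 53.1 and 99.5 percentile of all genes. Of 2 pancreatic acinar markers measured, Cela1 lay at percentile 56.6, above Mvd (53.1) and Lss (55.5). The other, Cpa1, lay at percentile 29.5, below all 37 genes. The lowest of the 37 genes may be near background, but the 2 markers differ on this and it was not tested.

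**Figure D1:**
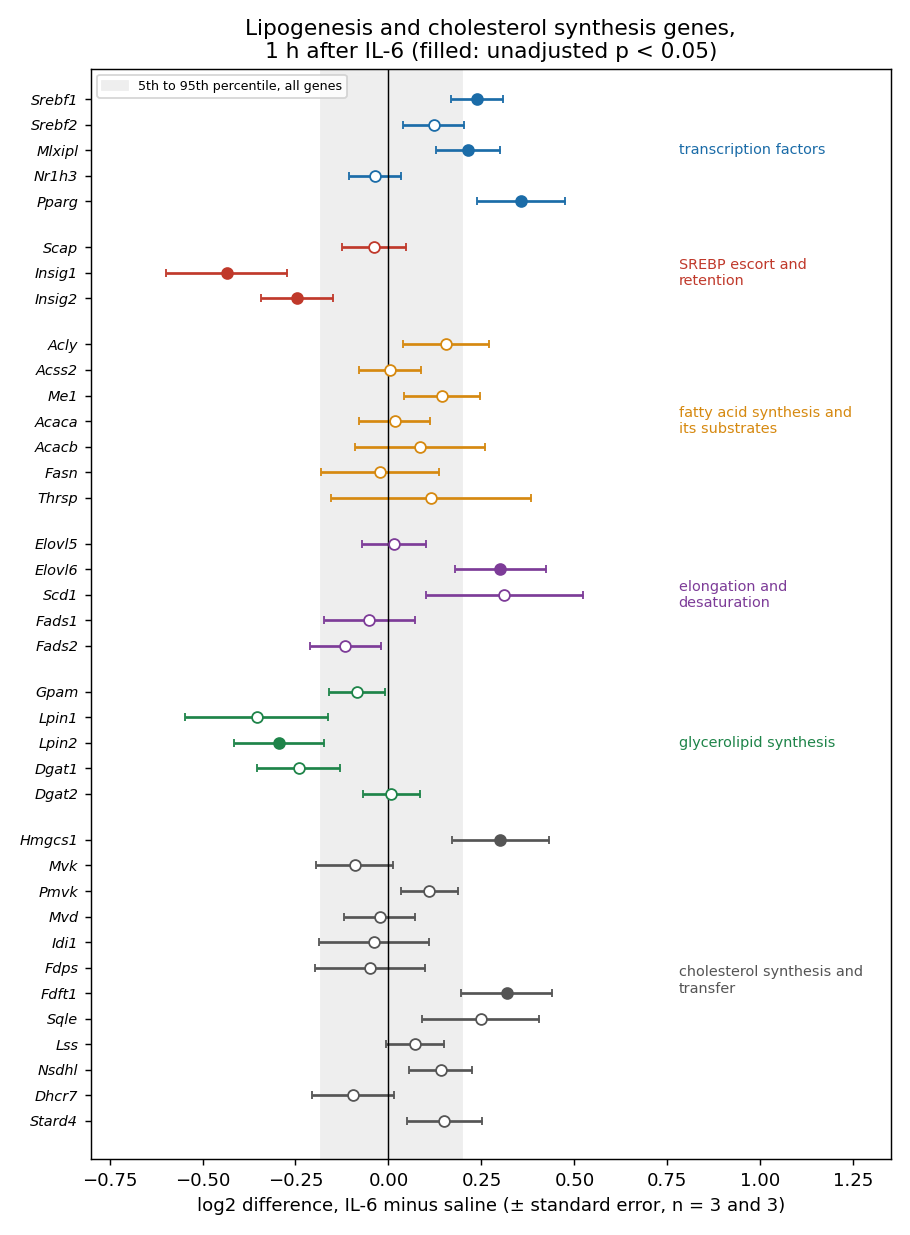
Log2 difference between IL-6 and saline for each of the 37 genes (point, with the limma standard error as bar, n = 3 arrays in each group), ordered by role, with filled points for an unadjusted p under 0.05. The grey band holds the 5th to 95th percentile of all genes (-0.18 to 0.20), with 24 of the 37 genes inside it, 8 above and 5 below.

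The count at the unadjusted threshold turned on some of the single arrays. Without saline replicate 2, 1 gene was higher and 0 were lower, a share of 2.70% where all genes gave 5.89%. Without IL-6 replicate 3, 2 were higher and 1 lower (8.11%, all genes 7.37%), and without IL-6 replicate 2, 4 were higher and 1 lower (13.5%, all genes 6.17%). Without saline replicate 1, 6 were higher and 5 lower (29.7%, all genes 6.74%). The count moved less in the remaining cases. Leaving out saline replicate 3 gave 6 higher and 2 lower (21.6%, all genes 6.28%). Leaving out IL-6 replicate 1 gave 5 higher and 2 lower (18.9%, all genes 6.21%). Saline replicate 2 and IL-6 replicate 3 stood apart from the others on the second principal component of all genes, which held 23.1% of the variance. Without both, 1 gene was higher and 1 lower, 5.41% against 6.43% of all genes. The arrays labelled IL-6 all carried an IL-6 response: Socs3, a feedback inhibitor of STAT signalling, lay between 6.18 and 6.61 in saline and between 9.45 and 9.63 after IL-6 (limma adjusted p = 1.45e-06). Saa2, an acute-phase protein gene, lay between 6.20 and 6.77 in saline and between 10.49 and 11.12 after IL-6 (limma adjusted p = 4.37e-06). The 6 hepatocyte markers measured, albumin among them, averaged 12.93 to 12.98 on every array.

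Of the 5 transcription factor genes, 3 were higher after IL-6 at the unadjusted threshold and none passed over all genes. Srebf1 read 6.66, 6.57 and 6.62 on the saline arrays and 6.85, 6.87 and 6.85 after IL-6. All IL-6 values were above all saline values, and the arrays of each group lay within 0.09 and 0.02 of each other. The log2 difference was 0.24 ± 0.07 (standard error, 17.9% higher, 95% interval 0.08 to 0.39, limma adjusted p = 0.437). Srebf1 was the gene of smallest p here, at rank 336 of 19938. Its spread within groups was among the smallest of all genes (percentile 2.37), so limma's standard error, which borrows from all genes, is wider than these replicates alone would give. Its unadjusted p stayed under 0.05 in each of 19 alternative analyses, with the adjusted p between 0.176 and 0.765.

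Mlxipl read 7.90, 7.77 and 7.91 in saline and 8.12, 7.94 and 8.16 after IL-6, groups that did not overlap. Its difference was 0.21 ± 0.09 (limma adjusted p = 0.686). Groups of 3 arrays did not overlap in 6 of the 37 genes and in 11.6% of all genes. They were Srebf1, Mlxipl, Elovl6 and Fdft1 on the higher side (6.15% of all genes), and Gpam and Lpin1 on the lower (5.48%). Pparg, which encodes the nuclear receptor PPARγ of fat storage, read 6.75, 6.68 and 7.08 in saline and 7.03, 7.27 and 7.28 after IL-6. Saline replicate 3 overlapped IL-6 replicate 1, and the difference of 0.36 ± 0.12 was the largest positive one among the 37 genes (limma adjusted p = 0.531). Adipocytes express Pparg strongly, and of 6 adipocyte markers measured 3 had positive and 3 negative differences. The log2 values of these 6 markers averaged 5.27 to 5.50 on the saline arrays and 5.35 to 5.42 on the IL-6 arrays. Adipoq, the defining marker, stayed below the 25th percentile of all genes (4.59). It read 2.90 to 2.97 in saline and 2.96 to 3.33 after IL-6, groups that overlapped (0.25 ± 0.10, limma adjusted p = 0.686). Plin1, another of these markers, went the other way, with groups that did not overlap (-0.20 ± 0.08, limma adjusted p = 0.687). The part of fat cells in the Pparg difference was not tested, and in whole tissue more cells of a type and more RNA per cell cannot be told apart.

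Srebf2 read 7.40, 7.58 and 7.45 in saline and 7.52, 7.67 and 7.60 after IL-6, overlapping groups with a difference of 0.12 ± 0.08 (limma adjusted p = 0.891). Another probe set that names Srebf2 together with other genes, Ube3a among them, was not used. Its difference was -0.12, opposite in sign. Nr1h3 read 8.27, 8.36 and 8.29 in saline and 8.25, 8.27 and 8.29 after IL-6. At -0.04 ± 0.07 its 95% interval ran from -0.19 to 0.12. The probe sets do not separate the SREBP-1a and SREBP-1c transcripts of Srebf1 here.

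Insig1 and Insig2, which encode the retention proteins, were lower at the unadjusted threshold, and Scap was close to 0. Insig1 read 8.98, 9.17 and 8.62 in saline and 8.44, 8.24 and 8.78 after IL-6. IL-6 replicate 3 lay above saline replicate 3, so the groups overlapped. The difference of -0.44 ± 0.16 was the largest in size among the 37 genes (fold 0.740, limma adjusted p = 0.633). Insig2, whose liver transcript is known to be induced in fasting, read 11.56, 11.87 and 11.82 in saline and 11.60, 11.47 and 11.45 after IL-6. Here saline replicate 1 overlapped the IL-6 arrays, and without it the difference went from -0.25 ± 0.10 (limma adjusted p = 0.679) to -0.34 (limma adjusted p = 0.378). Without saline replicate 2 it was -0.18 (limma adjusted p = 0.922). Scap read 8.53, 8.74 and 8.50 in saline and 8.56, 8.50 and 8.59 after IL-6, a difference of -0.04 ± 0.09.

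**Figure D2:**
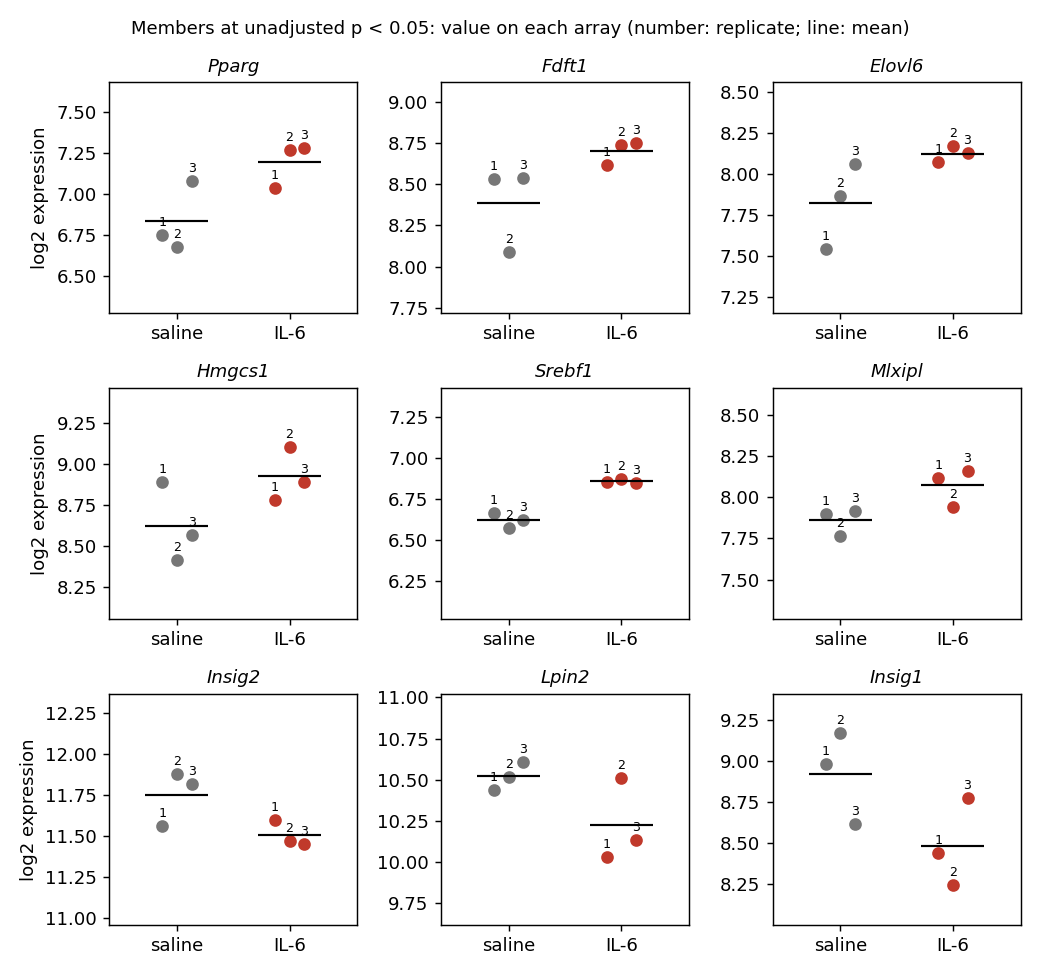
Log2 expression on each array for the 9 genes with an unadjusted limma p under 0.05, saline in grey and IL-6 in red, with the replicate number at each point, the group mean as a line and the same axis span in every panel. The groups do not overlap in Srebf1, Mlxipl, Elovl6 and Fdft1 and overlap in the other 5.

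None of the 7 genes of fatty acid synthesis and its substrates reached an unadjusted p under 0.05, and their differences ran from -0.02 in Fasn to 0.16 in Acly. Acly, which makes cytosolic acetyl-CoA from citrate, read 8.15, 8.25 and 8.29 in saline and 8.34, 8.18 and 8.65 after IL-6 (0.16 ± 0.12, limma adjusted p = 0.904). IL-6 replicate 3 alone lay well above the rest. Me1, malic enzyme, which supplies NADPH, read 10.09, 10.04 and 10.38 in saline and 10.23, 10.41 and 10.30 after IL-6 (0.14 ± 0.10, limma adjusted p = 0.901), and its other probe set gave the same 0.14.

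Fasn, the fatty acid synthase, read 8.08, 8.66 and 8.70 in saline and 8.30, 8.61 and 8.45 after IL-6. The IL-6 values lay within the saline range. The difference was -0.02 ± 0.16, with a 95% interval from -0.38 to 0.34. Acaca, the cytosolic acetyl-CoA carboxylase, had 0.02 ± 0.10 and the same 0.02 in its other probe set. Acacb, the mitochondrial form whose product restrains fatty acid oxidation, had 0.08 ± 0.18. Thrsp, a lipogenic protein induced by thyroid hormone and carbohydrate, had 0.11 ± 0.27, and Acss2, which makes acetyl-CoA from acetate, 0.004 ± 0.08.

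Some of the spread in this group lay in 1 control array. Saline replicate 1 had the lowest value of all 6 arrays for Acacb (7.55, the others 7.995 to 8.36), Fasn (8.08, the others 8.30 to 8.70) and Thrsp (6.19, the others 6.51 to 7.30). Thrsp also ranged over 0.79 among the IL-6 arrays, against 0.99 in saline, and Acly over 0.47 against 0.14. Cidec, a lipid droplet gene outside the 37 and named after its values were seen, read 7.24 there and 8.02 to 8.54 elsewhere. Relative to the saline mean, the 7 genes averaged -0.27 on saline replicate 1, 0.12 and 0.15 on the other saline arrays, and 0.03, 0.008 and 0.17 on the IL-6 arrays. Without saline replicate 1 the median of the group went from 0.08 to -0.06.

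Among the 5 genes of elongation and desaturation, Elovl6 was higher at the unadjusted threshold and the groups overlapped for the others. Elovl6, which elongates palmitate to stearate, read 7.54, 7.86 and 8.06 in saline and 8.07, 8.17 and 8.13 after IL-6. The lowest IL-6 value exceeded the highest saline value by 0.01, and the difference was 0.30 ± 0.12 (limma adjusted p = 0.687). Saline replicate 1 was again the lowest, and without it the difference was 0.16 (limma adjusted p = 0.855). Scd1, the stearoyl-CoA desaturase that makes oleate, read 11.95, 11.10 and 11.75 in saline and 12.21, 11.88 and 11.64 after IL-6. Its difference of 0.31 ± 0.21 was as large as that of Elovl6 but lay within its own spread (limma adjusted p = 0.893), and without saline replicate 2 it was 0.06.

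Fads2, the delta-6 desaturase, read 11.08, 10.80 and 10.88 in saline and 10.68, 10.86 and 10.87 after IL-6 (-0.12 ± 0.10, limma adjusted p = 0.917). Fads1, the delta-5 desaturase, had -0.05 ± 0.12, and Elovl5, an elongase of polyunsaturated fatty acids, 0.01 ± 0.09.

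In glycerolipid synthesis 4 of 5 differences were negative, where 51.1% of all genes had a positive difference. Lpin2, a phosphatidate phosphatase, read 10.44, 10.52 and 10.61 in saline and 10.03, 10.51 and 10.13 after IL-6. IL-6 replicates 1 and 3 lay below all saline values and replicate 2 among them, with a difference of -0.30 ± 0.12 (limma adjusted p = 0.693). Without IL-6 replicate 2 the difference was -0.44 (limma adjusted p = 0.192), and without IL-6 replicate 1 it was -0.20 (limma adjusted p = 0.890).

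Lpin1, a related phosphatase that also acts as a fasting-induced coactivator, read 10.05, 10.88 and 10.08 in saline and 9.91, 10.05 and 9.99 after IL-6. The groups did not overlap, but saline replicate 2 carried most of the difference of -0.35 ± 0.19 (limma adjusted p = 0.847), which was -0.08 without it. Dgat1, an enzyme of the last step to triglyceride, read 7.995, 8.33 and 8.13 in saline and 8.05, 7.73 and 7.95 after IL-6 (-0.24 ± 0.11, limma adjusted p = 0.771). Gpam, which acylates glycerol-3-phosphate in the first step, read 9.55, 9.56 and 9.64 in saline and 9.54, 9.42 and 9.54 after IL-6. Those groups did not overlap, by 0.007, and the difference was -0.08 ± 0.07 (limma adjusted p = 0.926). Dgat2, the other enzyme of the last step, had 0.008 ± 0.08, with a 95% interval from -0.16 to 0.18.

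**Figure D3:**
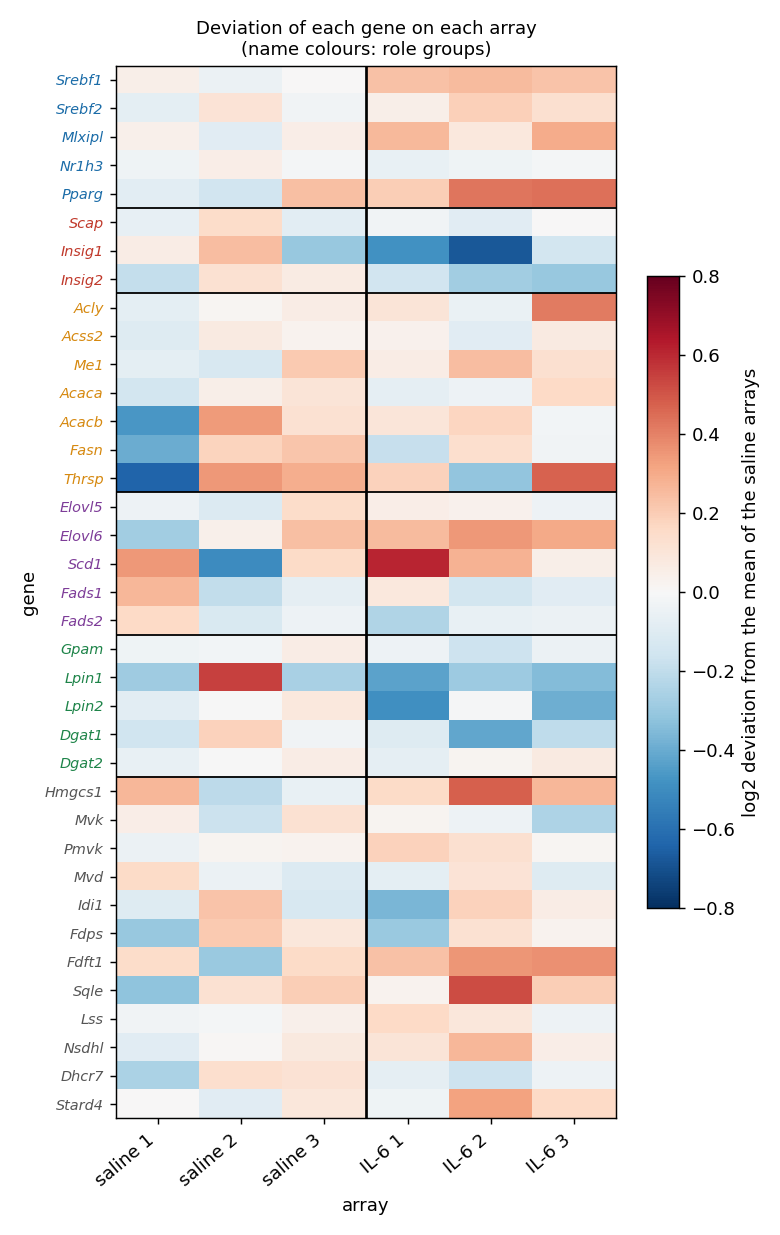
Deviation of each of the 37 genes (rows, names coloured by role) on each array (columns) from the mean of the saline arrays, on the log2 scale, red above and blue below. Acacb, Fasn and Thrsp are low on saline replicate 1, Lpin1 is high on saline replicate 2, and Srebf1 is above its saline values on all 3 IL-6 arrays.

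Of 12 genes of cholesterol synthesis and transfer, 2 were higher at the unadjusted threshold and 0 lower. Hmgcs1, which condenses acetoacetyl-CoA and acetyl-CoA ahead of HMG-CoA reductase, read 8.89, 8.42 and 8.57 in saline and 8.78, 9.10 and 8.89 after IL-6. Saline replicate 1 overlapped the IL-6 arrays (0.30 ± 0.13, limma adjusted p = 0.730), and without it the difference was 0.43 (limma adjusted p = 0.380). Without saline replicate 2 it was 0.20 (limma adjusted p = 0.936). Fdft1, squalene synthase, read 8.53, 8.09 and 8.54 in saline and 8.62, 8.74 and 8.75 after IL-6, groups that did not overlap (0.32 ± 0.12, limma adjusted p = 0.654). Saline replicate 2 was low, and without it the difference was 0.17 (limma adjusted p = 0.902). Its other probe set had 0.13, with 7.66, 7.74 and 7.70 in saline and 7.74, 7.90 and 7.85 after IL-6, so the 2 probe sets differed in size.

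The other 10 genes of this group did not reach the unadjusted threshold. Sqle, squalene epoxidase, which acts directly after Fdft1, had 0.25 ± 0.16 (limma adjusted p = 0.877), with 5.91, 6.36 and 6.43 in saline and 6.26, 6.75 and 6.43 after IL-6. Lss, which closes the sterol rings, had 0.07 ± 0.08. Of the mevalonate enzymes, Mvk had -0.09 ± 0.10, Pmvk 0.11 ± 0.08 and Mvd -0.02 ± 0.10. Idi1, the isomerase that follows, had -0.04 ± 0.15, and -0.06 in its other probe set. Fdps, which makes farnesyl diphosphate, had -0.05 ± 0.15. Late in the pathway, Nsdhl had 0.14 ± 0.09 and Dhcr7, which catalyses the last step to cholesterol, -0.10 ± 0.11. Stard4, a cytosolic sterol carrier, had 0.15 ± 0.10. Of these 10 differences 5 were positive and 5 negative, with limma adjusted p values from 0.872 to 0.984. Of the 12 genes of this group, only Hmgcs1, Sqle, Nsdhl and Stard4 had their highest value of the 6 arrays on IL-6 replicate 2. These were named after their values were seen. On that array 8 Kupffer cell markers averaged 6.55, against 6.18 to 6.35 on the other 5, and the part of those cells in the values was not tested.

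**Figure D4:**
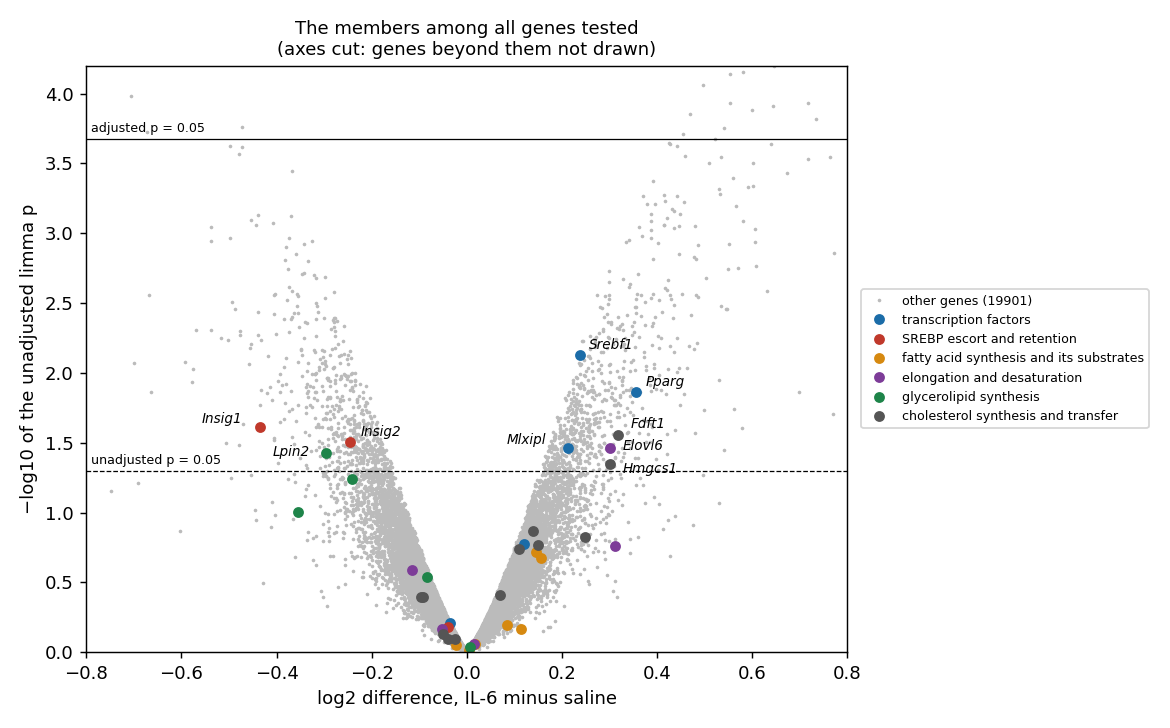
Each gene's log2 difference (horizontal axis) against −log10 of its unadjusted limma p (vertical axis), with the 37 genes coloured by role and all other genes in grey. The 9 named genes lie above the dashed line at an unadjusted p of 0.05, and all 37 lie below the solid line that marks an adjusted p of 0.05.

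The 37 genes varied more between arrays of a group than most genes. Their median SD within groups was 0.147 on the log2 scale, against 0.109 for all genes, and 25 of 37 lay above the median of all genes. Thrsp (0.48), Scd1 (0.37), Lpin1 (0.34) and Acacb (0.30) were the most variable. The spread was larger among the saline arrays for 27 of 37 genes, where 47.5% of all genes had the larger spread there. Saline replicate 1 held the lowest of the 6 values for 13 genes, and saline replicate 2 the lowest for 10 and the highest for 10. Saline replicate 3 held the lowest value for 1 gene. Over all 37, the mean deviation from the saline mean was -0.08, 0.03 and 0.05 on the saline arrays and -0.003, 0.05 and 0.05 on the IL-6 arrays, so the programme as a whole overlapped between groups.

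Other genes of the same pathways gave a similar picture of small differences. Of 66 further genes listed, 53 were measured, and 0 passed over all genes in limma. At an unadjusted p under 0.05, 4 were higher and 2 lower (11.3%, against 6.62% of all genes), and the median difference was 0.01. Nfyb, a subunit of NF-Y, which binds CCAAT boxes, read 7.04, 6.99 and 7.12 in saline and 7.28, 7.33 and 7.59 after IL-6 (0.35 ± 0.10, limma adjusted p = 0.370). Cd36, a fatty acid uptake protein, read 9.14, 8.67 and 8.78 in saline and 9.18, 9.20 and 9.35 after IL-6 (0.38 ± 0.12, limma adjusted p = 0.505). Rnf139, a ubiquitin ligase that has been tied to sterol control, had -0.19 ± 0.08 (limma adjusted p = 0.750), and its groups did not overlap. The other genes without overlap that were named by rule were Npc1l1, a cholesterol uptake protein (0.16 ± 0.08), Lpcat3, a phospholipid-remodelling LXR target (-0.09 ± 0.07), and Tm7sf2, a sterol reductase (0.09 ± 0.08).

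Abcg5 and Abcg8, the partner subunits of a sterol exporter and LXR targets, are given after their values were seen. Abcg8 had -0.31 ± 0.13 (limma adjusted p = 0.708) and Abcg5 -0.29 ± 0.13 (limma adjusted p = 0.771). Also chosen so, Pltp, a phospholipid transfer protein and LXR target, had 0.58 ± 0.22 (limma adjusted p = 0.636), and Elovl3, a fatty acid elongase, 0.29 ± 0.11 (limma adjusted p = 0.682). Abcg5 and Abcg8 thus differed in sign from Pltp, and none of these genes passed over all genes. The groups overlapped for Abcg5, Abcg8, Pltp and Elovl3. Pltp read 7.66 to 8.52 in saline and 8.34 to 8.94 after IL-6.

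**Figure D5:**
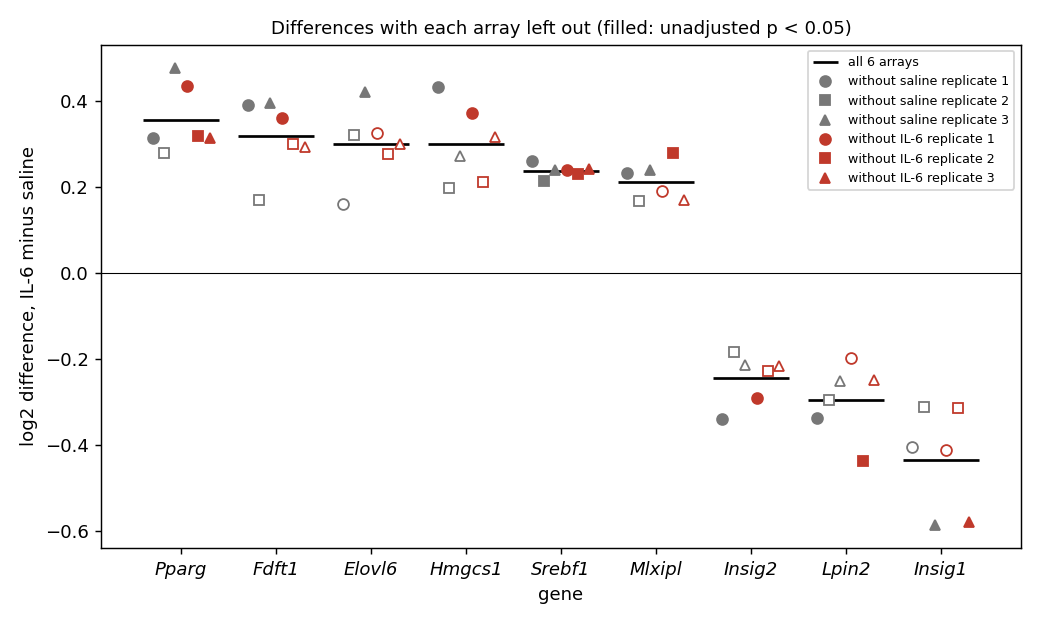
Log2 difference of the 9 genes with an unadjusted limma p under 0.05 over all 6 arrays (black line) and with each array left out in turn (symbols, saline arrays in grey and IL-6 arrays in red, filled where the unadjusted p stays under 0.05). Every symbol keeps the sign of its line, all 6 are filled for Srebf1, and without saline replicate 2 Srebf1 alone is filled.

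Markers of other liver cell types were set beside these values. None of 6 adipocyte, 8 Kupffer cell, 5 cholangiocyte, 5 endothelial, 5 stellate or 2 pancreatic acinar markers measured passed over all genes in limma. At an unadjusted limma p under 0.05, 3 in all were higher (Sox9, Timd4 and Adipoq) and 1 lower (Plin1). Of all genes, 3.78% were higher and 2.83% lower at this p. Cholangiocyte markers averaged 5.26 to 5.30 in saline and 5.33 to 5.45 after IL-6. Sox9 made up most of this, with 0.41 ± 0.11 (limma adjusted p = 0.326), while the other 4 had -0.09 to 0.13 and averaged 4.82 to 4.95 in saline and 4.84 to 4.97 after IL-6. Stellate cell markers averaged 6.98 to 7.13 in saline and 7.14 to 7.17 after IL-6. Of 5 neutrophil markers, S100a8 passed (0.65 ± 0.09, limma adjusted p = 0.0211), at levels of 3.51 to 3.69 in saline and 4.07 to 4.35 after IL-6 that lie below the 25th percentile of genes. Its difference was 0.59 to 0.73 with 1 array left out, and it passed without IL-6 replicate 3 (limma adjusted p = 0.0192) but not without any other single array (adjusted p 0.0532 to 0.128). The other neutrophil markers did not pass: S100a9 had -0.01 ± 0.07, Mpo 0.11 ± 0.18, Elane -0.14 ± 0.09 and Ly6g -0.27 ± 0.10 (limma adjusted p = 0.655), and the median of the 5 was -0.01. The part of these cell types in the values of the 37 genes was not tested.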

How the data were processed

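Biotin-labelled total RNA was hybridised to 1-colour Affymetrix arrays. The authors deposited log2 expression values that RMA had produced, per the submitters' processing notes. Which version, settings and genome build were used is not given in the sources used here. No further normalization was applied. Array medians ranged from 5.42 to 5.48.

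Each gene was represented by the probe set of highest mean among the 21789 that the platform table pairs with 1 symbol. Groups follow the sample titles. The groups were tested over 19938 genes in limma 3.58.1 (R 4.3.3; lmFit and eBayes, two-sided, Benjamini-Hochberg adjustment, threshold 0.05), with no filter on dim genes and no replicate block, after a check on simulated data. Plots used matplotlib 3.10.9 (Python 3.11.15). Precision is limited by the number of arrays. The median standard error over the 37 genes was 0.104, and no exact permutation test of 3 against 3 can fall below p = 0.1. Separate animals are not stated, so the p-values reflect variation among these samples, which may be technical.

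Members, lists, alternatives and the naming rule were chosen with earlier results of these data known. All 37 genes are named. Values on every array are given for transcription factors, SCAP and INSIG genes, genes at an unadjusted p under 0.05 or without overlap, and the 2 of smallest p in each role group. Those of Fasn, Fads2 and Sqle were added after their values were seen. Of other pathway genes, those called and up to 6 of smallest p without overlap are named. Genes that lack a probe set of their own were not analysed here. In RefSeq, 17 of the 37 genes overlap another gene, among them Srebf1 (Rai1) and Fdft1 (Ctsb), and whether the probes separate them was not tested.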

Additional observations from a re-analysis of the deposited data

How the results depend on the processing

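Over 19 alternatives, 0 of the 37 genes passed an adjusted p under 0.05, and 0 did so under 0.1. Of 703 values of single genes under these alternatives, 664 kept the sign found with all arrays, and 25 of the 37 genes kept it throughout. The rest were near 0 and moved by less than their SD. Socs3 and Saa2 passed in all 19, and the other pathway genes gave 0 throughout. The 6 higher and 3 lower genes at an unadjusted p under 0.05 became 3 and 0 when the variance was estimated over every probe set, and 1 and 1 without saline replicate 2 and IL-6 replicate 3 together. Leaving out 1 array gave 1 to 6 higher and 0 to 5 lower, with a median over the 37 genes of -0.021 to 0.087. Without saline replicate 2 the counts were 1 and 0. The 1 cell type marker that passed, S100a8, gave a count of 0 when genes below the 25th percentile or the median of level were left out, with every probe set, with the replicate block, and without both arrays named above, and 0 to 1 when 1 array was left out (0 in 5 of 6 cases, 1 without IL-6 replicate 3). Deviations of same-numbered arrays correlated at 0.08, -0.12 and -0.09. Those of differently numbered arrays correlated at -0.10 to 0.18, highest for saline replicate 2 with IL-6 replicate 3. With groups of 3 arrays, these values cannot show whether replicate numbers mark pairs. With the replicate block 6 genes were higher and 3 lower at an unadjusted p under 0.05, and 0 passed over all genes. These counts equal those without the block, but equal counts do not show that the same genes passed.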
